A study of Mus musculus with 6 samples.

Results

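Immune and microglial miRNAs are the 7 mature miRNAs mmu-miR-150-5p, mmu-miR-142a-3p, mmu-miR-142a-5p, mmu-miR-146a-5p, mmu-miR-146b-5p, mmu-miR-223-3p and mmu-miR-155-5p. They were chosen by name, as a reading of immune cell content and inflammation, and were found in the table of Ago-bound short RNAs by the deposited miRNA annotation of each read. All 7 were present among 782 mature miRNA names above 0, and they comprised 154 of 65087 unique sequences above 0. The samples were brains of 3 WT mice and 3 Tau tg mice, labelled as hippocampus in the sample source and as cortex and hippocampus combined in the protocol. Per the study's methods, all mice were 3-month-old males on a C57BL/6 J background. The Tau tg mice (genotype label Tau fragment tg) carry a human tau45-230 cDNA driven by Thy 1.2, a promoter cassette used to express a transgene in neurons. The WT mice carry no transgene. The table holds no measurement of the transgene, so the genotype labels were not checked. Ago proteins, which hold the guide RNA of the RNA-induced silencing complex (RISC), were pulled down with a GW182 peptide, and the RNA that came with them was sequenced (Ago-RP-Seq).

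These miRNAs have long been used as marks of blood-derived cells. Mature miR-142 arms are cut from a single hairpin that is transcribed in nearly all hematopoietic cells, and in brain tissue it is read as microglia and blood leukocytes. miR-223 belongs to neutrophils and other myeloid cells, and miR-150 to mature lymphocytes. miR-146a and miR-146b are induced by NF-κB and damp toll-like receptor signaling through IRAK1 and TRAF6, while miR-155 is induced by the same signals and promotes inflammatory responses, for example by targeting SOCS1. A miRNA selects its targets mainly through its seed, the stretch near its 5′ end, so that a read starting a base earlier or later has another seed.

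The mature sequences are shown because the reads are described by where they start and end relative to them. Capitals mark the seed at positions 2 to 8, and the sequences and coordinates are those of RefSeq for GRCm38.p6, written 5′ to 3′. mmu-miR-146a-5p and mmu-miR-146b-5p share 1 seed, and each of the other miRNAs has a seed of its own.
mmu-miR-146a-5p: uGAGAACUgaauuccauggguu
mmu-miR-146b-5p: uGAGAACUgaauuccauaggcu
mmu-miR-142a-3p: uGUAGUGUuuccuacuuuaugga
mmu-miR-142a-5p: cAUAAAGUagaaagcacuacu
mmu-miR-223-3p: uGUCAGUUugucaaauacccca
mmu-miR-155-5p: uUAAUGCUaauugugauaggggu

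Counting from 1 at the 5′ end, the substitutions from mmu-miR-146a-5p to mmu-miR-146b-5p are G18A and U21C. The shortest read named as mmu-miR-146a-5p had 20 nt and the shortest named as mmu-miR-146b-5p had 18 nt, so a read from the annotated start reached the first of these positions. mmu-miR-146a-5p lies at chr11:43374435-43374456 on the minus strand, where GENCODE lists no overlapping gene besides its hairpin. mmu-miR-146b-5p lies at chr19:46342790-46342811 on the plus strand, within an intron of Mfsd13a. mmu-miR-155-5p lies at chr16:84714143-84714165 on the plus strand, in an exon of the long noncoding Mir155hg. mmu-miR-223-3p lies at chrX:96242884-96242905 on the plus strand, in an exon of F630028O10Rik, an antisense noncoding gene. Both arms of miR-142a come from the Mir142 hairpin at chr11:87756864-87756927 on the plus strand, inside an intron of the long noncoding Mir142hg and opposite Mir142b. The hairpin is shown because many reads of its arms started outside the annotated ends. Capitals mark the annotated 5p arm, then the 3p arm.
Mir142 hairpin: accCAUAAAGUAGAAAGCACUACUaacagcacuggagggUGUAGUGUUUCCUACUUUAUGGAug

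The libraries held between 998248 reads (WT 3) and 6879551 reads (Tau tg 1), so the level that 3 reads give ranged from 2.75 to 0.427 RPM (the authors' reads per library, scaled to a common total). Reads named as mature miRNAs made up 82.7% to 92.4% of the RPM. Neurons were represented by their miRNAs in all mice, with the 6 miRNAs of the neuron list (among them mmu-miR-124-3p) summing to between 109474 and 132300 RPM. Red blood cell miRNAs were present as well, since the 4 rows above 0 of that list summed to between 732 and 1300 RPM. Whether the mice were perfused is not given in the sources used here. The tissue is a mixture of cells, so fewer cells of a type and less RNA per cell cannot be told apart. The labels tie each Tau tg sample to an individual mouse but say nothing of this kind for WT, and p-values measure the spread between these samples only.

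The 7 miRNAs together were a small share of the RISC content. Their levels summed to 2699, 2653 and 2220 RPM in WT 1 to 3 and to 3059, 2715 and 2400 RPM in Tau tg 1 to 3. The groups overlapped, and the mean was 2524 ± 265 RPM (SD, n = 3) for WT against 2724 ± 330 RPM (SD, n = 3) for Tau tg. As a share of miRNA reads the sum was between 0.288% and 0.341% in every mouse. mmu-miR-150-5p alone gave 69.5% to 77.7% of the sum. Without it, the other 6 miRNAs averaged 705 ± 57.3 RPM in sum for WT against 664 ± 46.7 RPM for Tau tg (SD, n = 3 each).

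The levels differed widely between the 7 miRNAs on the RPM scale. From high to low mean level they were mmu-miR-150-5p, mmu-miR-142a-3p, mmu-miR-146b-5p, mmu-miR-146a-5p, mmu-miR-142a-5p, mmu-miR-223-3p and mmu-miR-155-5p. Each mature miRNA gives reads of nearly the same length (mean 21 to 24 nt), but ligation favours some sequences over others, and levels of different miRNAs are therefore levels of reads. The ranges over the 6 mice did not overlap between mmu-miR-150-5p and mmu-miR-142a-3p, between mmu-miR-142a-5p and mmu-miR-223-3p, or between mmu-miR-223-3p and mmu-miR-155-5p. From mmu-miR-142a-3p to mmu-miR-142a-5p, each miRNA overlapped with the next in its range, so these ranges do not set the order of neighbours. The first and the last of these did not overlap, at 141 to 378 RPM for mmu-miR-142a-3p and 61.4 to 126 RPM for mmu-miR-142a-5p.

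**Figure D1:**
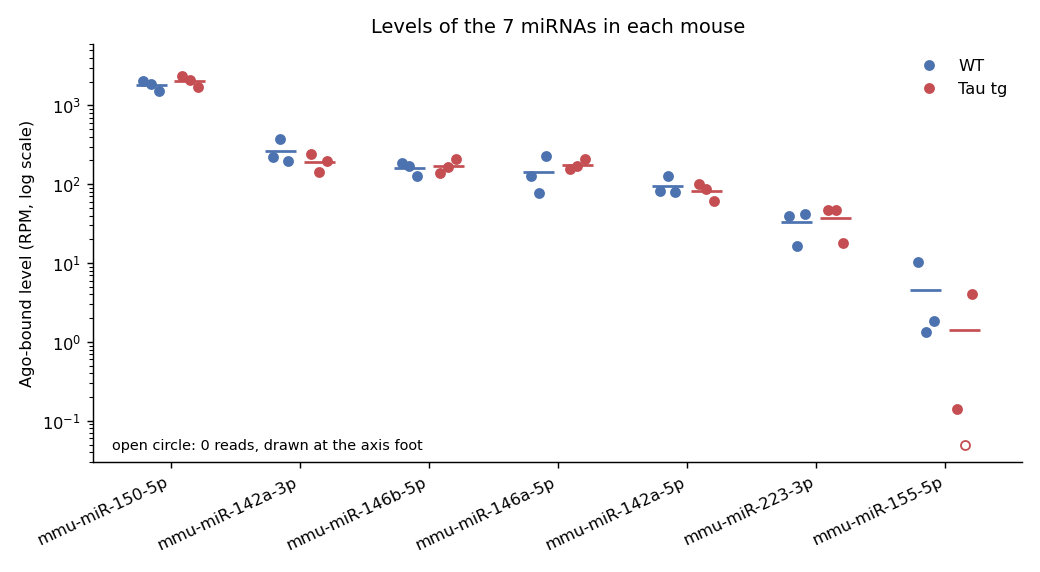
Level of each miRNA in each mouse, in RPM on a log axis, with WT in blue, Tau tg in red and a bar at each group's mean. The points of both groups overlap for all 7 miRNAs, and mmu-miR-155-5p, with at most 22 reads in a library, is the most scattered.

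mmu-miR-150-5p was the most abundant of the 7. It is described above as a mark of lymphocytes, but which cells gave its reads here was not tested. It was measured at 2034, 1883 and 1542 RPM in WT 1 to 3 and at 2378, 2103 and 1700 RPM in Tau tg 1 to 3, which placed it between rank 60 and rank 76 of the mature miRNAs of a library. The lowest value was that of WT 3 and the highest that of Tau tg 1, with overlap between the groups. The log2 fold change of Tau tg over WT, on the log2(RPM + 1) scale, was 0.18 ± 0.30 (SE), with an adjusted p of 0.937 by limma. With a mouse left out it was 0.060 (WT 3), 0.065 (Tau tg 1) and 0.31 (Tau tg 3).

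The arms of miR-142a, the pan-hematopoietic miRNA, were both measured well above the floor. mmu-miR-142a-3p stood at 220, 378 and 199 RPM in WT 1 to 3 and at 243, 141 and 197 RPM in Tau tg 1 to 3. WT 2 had the highest and Tau tg 2 the lowest value, and the remaining 4 mice lay between 197 and 243 RPM. The log2 fold change was -0.43 ± 0.44 (SE), with an adjusted p of 0.896 by limma, and it was -0.15 without WT 2. mmu-miR-142a-5p stood at 82.0, 126 and 78.9 RPM in WT 1 to 3 and at 99.5, 87.8 and 61.4 RPM in Tau tg 1 to 3. WT 2 was again the highest, and Tau tg 3 the lowest. Its log2 fold change was -0.20 ± 0.55 (SE), with an adjusted p of 0.959 by limma, and it was 0.015 without WT 2 and 0.00041 without Tau tg 3. The 3p arm exceeded the 5p arm in all 6 mice, by 2.74 ± 0.242 times for WT and by 2.42 ± 0.802 times for Tau tg (SD, n = 3 each).

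mmu-miR-223-3p, the myeloid miRNA, was lower than mmu-miR-142a-3p in all 6 mice. Its levels were 39.8, 16.3 and 42.2 RPM in WT 1 to 3 and 47.8, 46.8 and 18.0 RPM in Tau tg 1 to 3, from between 24 and 336 reads. Each group held a single low mouse, WT 2 and Tau tg 3, and the other mice lay between 39.8 and 47.8 RPM. The log2 fold change was 0.18 ± 0.80 (SE), with an adjusted p of 0.966 by limma, and it was -0.25 without WT 2. The ratio of mmu-miR-223-3p to mmu-miR-142a-3p ranged from 0.0430 in WT 2 to 0.331 in Tau tg 2. The deposited annotation also lists an mRNA for reads of mmu-miR-223-3p, so fragments of that mRNA are not told apart from the miRNA.

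The NF-κB induced miR-146 family gave close totals in both groups. mmu-miR-146a-5p was measured at 126, 76.6 and 229 RPM in WT 1 to 3 and at 154, 168 and 211 RPM in Tau tg 1 to 3. The WT mice spanned the whole range, holding the lowest value in WT 2 and the highest in WT 3, and the Tau tg mice lay within it. The log2 fold change was 0.43 ± 0.50 (SE), with an adjusted p of 0.896 by limma, and it was 0.050 without WT 2 and 0.84 without WT 3. mmu-miR-146b-5p was measured at 187, 172 and 127 RPM in WT 1 to 3 and at 137, 167 and 208 RPM in Tau tg 1 to 3. WT 3 was the lowest and Tau tg 3 the highest. Its log2 fold change was 0.076 ± 0.45 (SE), with an adjusted p of 0.976 by limma, and its sign turned when reads were scaled by the median of ratios, to -0.084. The family sum was 306 ± 54.0 RPM for WT against 349 ± 65.1 RPM for Tau tg (SD, n = 3 each). The ratio of mmu-miR-146a-5p to mmu-miR-146b-5p took the values 0.673, 0.445 and 1.81 over WT 1 to 3, and 1.12, 1.005 and 1.01 over Tau tg 1 to 3, so that the WT mice spread widely on both sides of the Tau tg values.

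mmu-miR-155-5p, the inflammatory miRNA, was near the limit of detection. It had 22, 2 and 2 reads in WT 1 to 3 (10.3, 1.36 and 1.84 RPM) and 1, 0 and 10 reads in Tau tg 1 to 3 (0.142, 0 and 4.09 RPM). In Tau tg 2, a count of 0 allows a level of up to 2.51 RPM. The log2 fold change was -1.23 ± 1.25 (SE), with an adjusted p of 0.896 by limma. WT 1 held most of the WT reads, and without it the log2 fold change was -0.52. Within Tau tg, the Poisson 95% intervals of Tau tg 1 (0.0036 to 0.793 RPM) and Tau tg 3 (1.96 to 7.52 RPM) did not overlap. Within WT, that of WT 1 (6.46 to 15.6 RPM) did not overlap with WT 2 (0.164 to 4.90 RPM), but did with WT 3 (0.222 to 6.63 RPM). The spread between mice of a group thus exceeded counting error, and the groups did not differ beyond that spread.

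None of the 7 miRNAs passed an adjusted p of 0.05 by limma, in a test in which 0% of all 689 mature miRNAs passed. At an unadjusted p of 0.05, the limit that the study used row by row, 0 of 7 passed beside 3.63% of all miRNAs tested (25 of 689). edgeR and DESeq2 on the reads recovered from the RPM also put 0 of the 7 past an adjusted p of 0.05, and 0 and 5 of all miRNAs. The groups overlapped for all 7. Of the miRNAs above 0 in every mouse, as 6 of the 7 were, 9.53% (45 of 472) had groups that did not overlap. As deposited, 4 of the 7 had a log2 fold change above 0 and 3 below, with a median of 0.076. Over all 689 miRNAs the median was 0.25 and 438 were above 0. That median fell to 0.095 with median-of-ratios scaling, to 0.061 with quantile normalization and to 0.15 with scaling to miRNA reads, and the signs of mmu-miR-146b-5p and mmu-miR-223-3p turned under some of these. The 95% intervals leave room for changes in either direction. For mmu-miR-150-5p the interval ran from a ratio of 0.721 to one of 1.77, for mmu-miR-142a-3p from 0.390 to 1.42, and for mmu-miR-223-3p from 0.349 to 3.69.

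**Figure D2:**
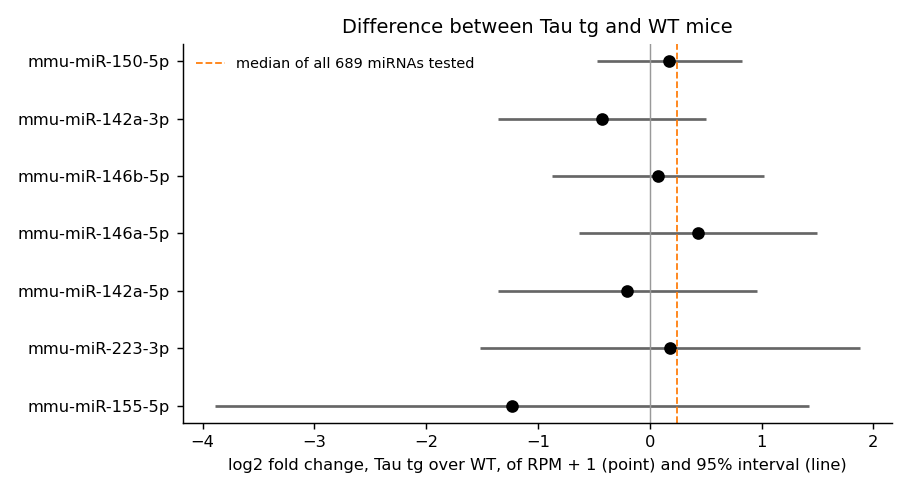
Log2 fold change of Tau tg over WT for each miRNA on the log2(RPM + 1) scale (points) with the 95% interval from limma (lines), and the median of all 689 miRNAs tested (dashed line). Every interval includes 0, and the intervals widen from mmu-miR-150-5p to mmu-miR-155-5p as the levels fall. The signs of mmu-miR-146b-5p, mmu-miR-223-3p and mmu-miR-142a-5p turned under some other scalings or when a mouse was left out.

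Further miRNAs of the same pathways and cells were counted from lists. Of the 9 miRNAs of the innate response list, none passed an unadjusted p of 0.05 by limma, 6 had a log2 fold change above 0, and the median was 0.0998. The list was led by mmu-miR-9-5p, which neural cells express, and so its sum (97762 to 132510 RPM) is not that of immune cells. Of the 6 lymphoid miRNAs, led by mmu-miR-181a-5p, none passed at that limit, and the median was -0.15. All 6 were below 0, from -0.53 up to -0.0015 for mmu-miR-181a-5p. Which cells gave the reads of this list was not tested, and mmu-miR-181a-5p alone averaged 11114 RPM. None of the 4 red blood cell miRNAs, led by mmu-miR-451a, passed either, with a median of 0.082, nor did the 2 endothelial, 4 mural, 6 neuron or 3 oligodendrocyte miRNAs. Each of these lists overlapped between the groups in its summed level. Only the epithelial list had members past the unadjusted limit, and its summed level overlapped between the groups as well. By limma, 0 of its 5 members had an adjusted p under 0.05. At an unadjusted p under 0.05, 3 of 5 were lower in Tau tg, beside 3.63% of all miRNAs. These were the miR-200 relatives mmu-miR-200a-3p (mean of 2484 ± 1413 RPM for WT against 921 ± 53.1 RPM for Tau tg, SD, n = 3 each), mmu-miR-200b-3p (925 ± 525 and 242 ± 56.2 RPM) and mmu-miR-429-3p (844 ± 546 and 102 ± 91.0 RPM), which epithelial cells and olfactory tissue express. WT 1 was below WT 2 and WT 3 for all 3 of them. The other 2 did not pass and had log2 fold changes above 0, at 0.61 for mmu-miR-204-5p, which led the list (2835 ± 1724 RPM in WT, 4586 ± 3174 RPM in Tau tg), and at 0.94 for mmu-miR-211-5p. The summed epithelial list ranged from 3410 to 11292 RPM in WT and from 3249 to 9497 RPM in Tau tg, and the part of tissue makeup in the levels of the immune miRNAs was not tested.

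Of the opposite arms and the opposite-strand miRNA of these hairpins, only mmu-miR-150-3p and mmu-miR-146b-3p had reads in the table. mmu-miR-150-3p had 20 reads in WT 2 and 15 in Tau tg 1, and none in the other libraries. mmu-miR-146b-3p had 2 reads in WT 3 and 50 in Tau tg 1. Each was thus seen in 1 mouse of each group, in a table from which the authors had removed rare reads.

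The profile of each miRNA over the 6 mice was set against 470 other miRNAs of at least 10 RPM, by the root mean square difference of centred log2(RPM + 1) values. mmu-miR-139-5p was nearest to mmu-miR-150-5p, at 0.124 where the median miRNA was at 0.579. mmu-miR-376b-5p was nearest to mmu-miR-142a-3p (0.187, median 0.708) and mmu-miR-410-3p to mmu-miR-142a-5p (0.0883, median 0.654). mmu-miR-132-5p was nearest to mmu-miR-146b-5p (0.166), mmu-miR-672-5p to mmu-miR-146a-5p (0.228) and mmu-miR-338-5p to mmu-miR-223-3p (0.247). The arms of miR-142a differed from each other by 0.318, and mmu-miR-146a-5p from mmu-miR-146b-5p by 0.624. All of these share the libraries and their scaling, and with 6 mice and 470 candidates a near profile is a description only.

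The reads of each miRNA were then compared by their ends. Most reads of this group started where RefSeq has them, while the 3p arm of miR-142a more often did not. Of all mmu-miR-142a-3p reads 54.2% started away from the annotated base, which ranks 35 among 373 miRNAs of at least 10 RPM with a RefSeq sequence. The median miRNA had 4.48% such reads, and 10.7% of the 373 had more than 50%. For mmu-miR-142a-5p the share was 36.1% (rank 60), for mmu-miR-223-3p 10.3% (rank 121), for mmu-miR-146b-5p 3.09% (rank 230) and for mmu-miR-146a-5p 0.717% (rank 326).

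The reads that carry the shift in mmu-miR-142a-3p are shown first by the most abundant read, which starts 1 base after the annotated start, and then by the most abundant read with the annotated start. Capitals mark positions 2 to 8.
mmu-miR-142a-3p, starting 1 base later: gUAGUGUUuccuacuuuaugga
mmu-miR-142a-3p, annotated start: uGUAGUGUuuccuacuuuaugg

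The read with the later start was measured at 92.3, 99.6 and 52.3 RPM in WT 1 to 3 and at 88.6, 43.5 and 61.0 RPM in Tau tg 1 to 3. The read with the annotated start was measured at 42.6, 95.5 and 56.0 RPM in WT 1 to 3 and at 45.5, 31.8 and 53.6 RPM in Tau tg 1 to 3. The later start was the more abundant of this pair in 5 of the 6 mice, and WT 3 was the exception. All reads starting 1 base later made up 52.8%, 36.9% and 47.9% of mmu-miR-142a-3p in WT 1 to 3 and 56.4%, 41.4% and 43.4% in Tau tg 1 to 3. The groups overlapped, with means of 45.9% ± 8.12 and 47.0% ± 8.13 (SD, n = 3 each). The shift was thus shared by both genotypes. Averaged over the 6 mice, the seeds GUAGUG and UAGUGU each reached 105.3 RPM, but only as pooled means. GUAGUG had a WT mean of 128.9 ± 71.8 RPM and a Tau tg mean of 81.7 ± 9.81 RPM. For UAGUGU the WT mean was 117.1 ± 22.1 RPM and the Tau tg mean 93.6 ± 39.7 RPM (SD, n = 3 each).

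In mmu-miR-142a-5p the shift went the other way. The annotated sequence was the most abundant read, and the next 5′ end lay 2 bases earlier, within the Mir142 hairpin shown above.
mmu-miR-142a-5p, annotated start: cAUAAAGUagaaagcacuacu
mmu-miR-142a-5p, starting 2 bases earlier: cCCAUAAAguagaaagcacuac

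Reads starting before the annotated base made up 16.6%, 64.0% and 36.0% of mmu-miR-142a-5p in WT 1 to 3 and 29.0%, 15.2% and 20.7% in Tau tg 1 to 3. WT 2 stood apart, and in that mouse alone the earlier start outnumbered the annotated one. The longer read shown above was at 42.7 RPM in WT 2 and between 1.67 and 13.8 RPM in the other 5 mice. The means were 38.9% ± 23.8 in WT and 21.6% ± 6.95 in Tau tg (SD, n = 3 each), and the groups overlapped.

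**Figure D3:**
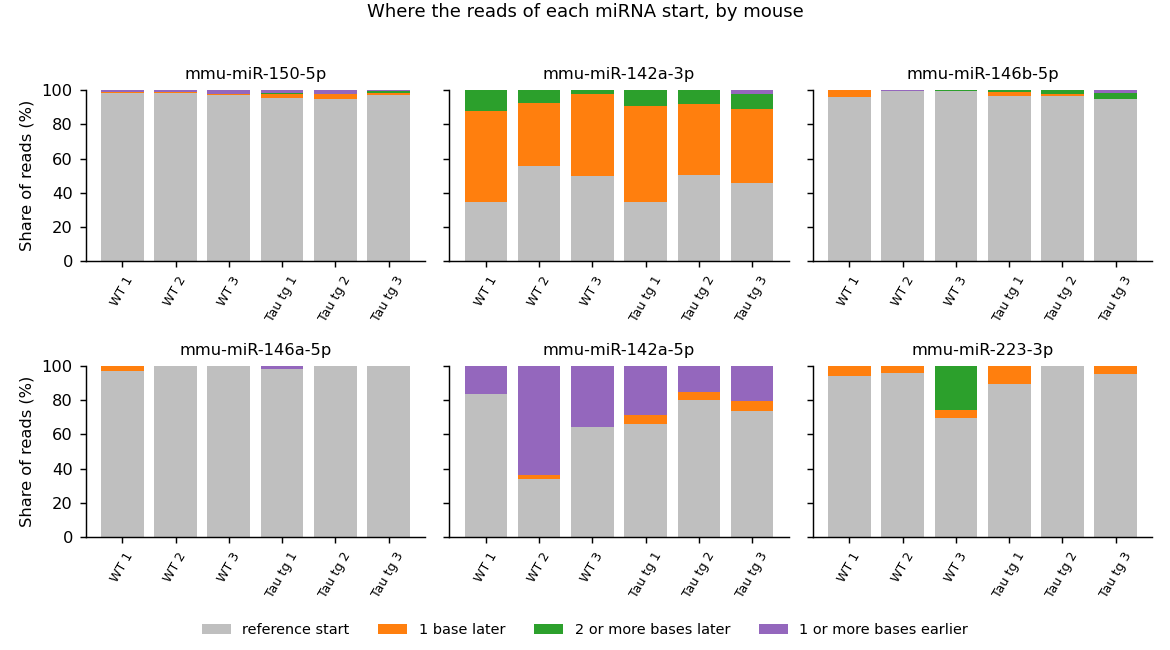
Share of reads of each miRNA by the position of their first base, in percent, for each mouse. The reference start is that of RefSeq, and for mmu-miR-150-5p that of its most abundant read, while mmu-miR-155-5p is left out for lack of reads. Later starts make up 44.3% to 65.1% of mmu-miR-142a-3p in WT, earlier starts reach 64.0% of mmu-miR-142a-5p in WT 2, and the other miRNAs mostly keep the reference start.

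Reads starting 1 base late were few in mmu-miR-142a-5p, but their share did not overlap between the groups. There were 0 of 175, 4 of 186 and 0 of 86 reads in WT 1 to 3 (0%, 2.15% and 0%), and 35 of 699, 5 of 105 and 9 of 150 reads in Tau tg 1 to 3 (5.01%, 4.76% and 6%). For the counts of 0, the Wilson 95% interval reached 2.15% in WT 1 and 4.28% in WT 3. The Wilson 95% interval of WT 2 reached 5.40% and that of Tau tg 2 went down to 2.05%, so the separation rests on few reads. The same share did not overlap between the groups in 6.16% of the miRNAs compared (22 of 357). With 3 mice against 3 an exact permutation test cannot go below p = 0.1.

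mmu-miR-150-5p reads were nearly all of 1 start. Relative to its most abundant read, of 22 nt and 57.2% of the total, reads with another start made up 1.40% to 4.97% of a library. The most abundant read was at 1215, 1231 and 872 RPM in WT 1 to 3 and at 1427, 987 and 925 RPM in Tau tg 1 to 3, with a log2 fold change of -0.00054 ± 0.45 (SE). The read 1 base shorter at its 3′ end was at 286, 293 and 260 RPM in WT and 341, 408 and 320 RPM in Tau tg. Here the groups did not overlap, as was so for 2 of the 37 reads of the 7 miRNAs that were above 0 in every mouse, and for 9.22% of all such sequences (526 of 5704). For this read limma gave a log2 fold change of 0.34 ± 0.54 (SE) and an adjusted p of 0.684 over all sequences.

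Of the 154 reads of the 7 miRNAs, 95 had a mean of at least 1 RPM and entered the fit over all unique sequences. None of the 95 passed an adjusted p of 0.05 by limma, where 0.0277% of the 36070 sequences tested did (10). At an unadjusted p of 0.05, 2 of 95 passed (2.11%), beside 2.23% of all sequences tested. Both were mmu-miR-150-5p reads of 21 nt with a higher level in Tau tg. The first started 1 base after the most abundant read and was at 0.937, 5.42 and 8.26 RPM in WT 1 to 3 and at 33.6, 56.9 and 3.68 RPM in Tau tg 1 to 3. Tau tg 3 lay among the WT mice, and the log2 fold change was 2.12 ± 0.99 (SE), with an adjusted p of 0.584 by limma. It was 1.45 without WT 1. Leaving out Tau tg 2 gave 1.39, and leaving out Tau tg 3 gave 3.20. The second had 0, 4 and 0 reads in WT 1 to 3 and 26, 14 and 21 reads in Tau tg 1 to 3, and differs from the most abundant read in 1 base, its last. Its log2 fold change was 2.42 ± 1.22 (SE), with an adjusted p of 0.584 by limma. All reads starting 1 base late made up 0.0691%, 0.324% and 0.654% of mmu-miR-150-5p in WT 1 to 3 and 2.26%, 2.70% and 0.963% in Tau tg 1 to 3, and these groups did not overlap. The WT shares rest on 3, 9 and 11 reads, and the Wilson 95% intervals of WT 3 (0.366% to 1.17%) and Tau tg 3 (0.708% to 1.31%) overlapped. Among the miRNAs compared against a RefSeq start, which did not include mmu-miR-150-5p, such a share did not overlap in 6.16%.

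At the 3′ end, mmu-miR-146a-5p carried bases that its hairpin does not hold. Its most abundant read was the annotated sequence, and the next was that sequence with 1 U added.
mmu-miR-146a-5p, annotated: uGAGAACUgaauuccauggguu
mmu-miR-146a-5p, 1 U added: uGAGAACUgaauuccauggguuu

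The read with the added U gave 21.8% of mmu-miR-146a-5p reads. It was at 43.6, 16.9 and 50.5 RPM in WT 1 to 3 and at 33.4, 34.3 and 31.5 RPM in Tau tg 1 to 3. In WT 1 it exceeded the annotated read (39.3 RPM), and in the other 5 mice it was below it. Reads with a tail, which depart from the hairpin only within their last 3 bases, made up 31.6% of mmu-miR-146a-5p over the 6 mice (rank 46 of 373, where the median was 9.50%). Added and substituted bases were not told apart in these shares. By group the share was 32.7% ± 9.94 in WT and 30.7% ± 5.24 in Tau tg (SD, n = 3 each).

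mmu-miR-146b-5p differed from its relative here. Tails made up 4.58% of its reads (rank 269 of 373), and its second read was 2 bases longer in the bases that the hairpin holds.
mmu-miR-146b-5p, annotated: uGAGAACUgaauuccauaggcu
mmu-miR-146b-5p, 2 bases longer: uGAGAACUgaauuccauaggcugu

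The annotated read was at 56.7, 53.5 and 30.3 RPM in WT 1 to 3 and at 40.8, 77.8 and 59.7 RPM in Tau tg 1 to 3. The longer read was at 49.2, 37.3 and 41.3 RPM in WT and 35.7, 25.9 and 49.9 RPM in Tau tg. WT 3 was the only mouse in which the longer read exceeded the annotated one. Tailed mmu-miR-146b-5p reads numbered 11 of 400, 5 of 254 and 4 of 138 in WT 1 to 3 (2.75%, 1.97% and 2.90%) and 65 of 966, 8 of 200 and 43 of 509 in Tau tg 1 to 3 (6.73%, 4% and 8.45%). The groups did not overlap, as was so for 5.32% of the miRNAs compared (19 of 357). The Wilson intervals of WT 1 (1.54% to 4.86%) and Tau tg 2 (2.04% to 7.69%) overlapped.

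mmu-miR-223-3p had 15 different reads above 0, of which the annotated sequence gave 26.9% of the level. That read was at 2.81, 5.42 and 6.42 RPM in WT 1 to 3 and at 15.1, 20.1 and 6.96 RPM in Tau tg 1 to 3. This was the other of the 2 reads whose groups did not overlap, though Tau tg 3 lay close to WT 3, and limma gave a log2 fold change of 1.30 ± 1.01 (SE) and an adjusted p of 0.584. The read 1 base longer was at 13.1, 4.07 and 9.17 RPM in WT and 11.0, 0.836 and 3.68 RPM in Tau tg, with overlap. In WT 3, 12 of 46 reads started 2 bases late, a form that no other library held. All 3 reads of mmu-miR-155-5p had the annotated start.

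The study weighs each short RNA by its 6mer seed (positions 2 to 7), to which it assigns the viability of cells transfected with an RNA of that seed, averaged over 3 mouse cell lines. By this deposited value, the seeds of these miRNAs ranged widely. The seed GUCAGU of mmu-miR-223-3p had a viability of 31.3%, UAAUGC of mmu-miR-155-5p 42.9%, and GAGAAC of both miR-146 miRNAs 51.6%. The main seed of mmu-miR-150-5p was at 69.3%, and AUAAAG of mmu-miR-142a-5p at 79.1%. The shift in mmu-miR-142a-3p moved its reads from GUAGUG at 75.8% to UAGUGU at 57.6%, and the earlier start in mmu-miR-142a-5p moved reads from 79.1% to 68.5% (CCAUAA).

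Weighted by reads, the 7 miRNAs had a mean seed viability of 66.0% ± 0.757 in WT and 65.9% ± 0.595 in Tau tg (SD, n = 3 each), and the groups overlapped. Over all miRNA reads the mean was 58.5% ± 1.35 in WT and 57.7% ± 0.350 in Tau tg. Reads with a seed viability under 50% made up 1.84% to 3.51% of the 7 miRNAs and 22.6% to 24.97% of all miRNA reads. The value of the group follows mmu-miR-150-5p, which gives most of its reads. mmu-miR-146b-5p and mmu-miR-146a-5p supplied 48.1% and 47.6% of all reads in the table with the seed GAGAAC, mmu-miR-223-3p 83.6% of those with GUCAGU, and mmu-miR-142a-3p 91.6% of those with UAGUGU. mmu-miR-142a-5p supplied 71.5% of those with AUAAAG, where mmu-miR-9-3p was the next miRNA at 19.5 RPM. mmu-miR-155-5p supplied 20.2% of those with UAAUGC.

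**Figure D4:**
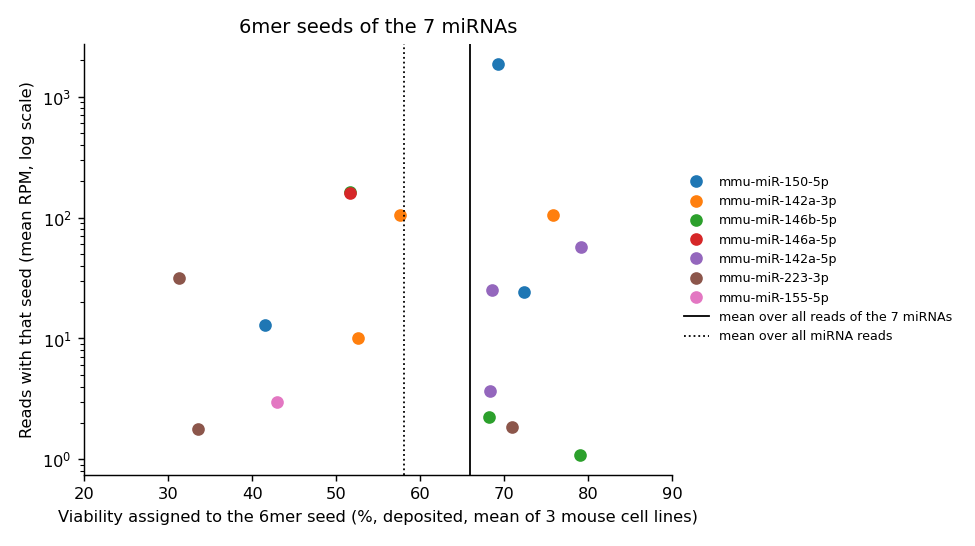
Each point is a 6mer seed of at least 1 RPM among the 3 leading seeds of a miRNA, placed by the deposited viability of that seed (percent) and its mean level over the 6 mice (RPM, log axis). The solid line marks the mean viability over reads of the 7 miRNAs and the dotted line that over all miRNA reads. mmu-miR-146a-5p and mmu-miR-146b-5p lie on top of each other at 51.6%, and mmu-miR-223-3p has the lowest value at 31.3%.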

How the data were processed

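Ago-bound short RNAs of 3 WT and 3 Tau tg mouse brains were read from 1 table, grouped by sample title. The authors sequenced gel-selected RNA of 19 to 35 nt, trimmed the reads (Trim Galore, per the submitters' processing notes), compiled unique reads, removed rare ones, searched small RNA lists with BLAST, removed artificial sequences and scaled each library. The deposited values are RPM, reads of each unique sequence scaled by the authors to a common library total. The deposited viability of each 6mer seed was used as given. Versions and the miRNA reference of that search are not given in the sources used here.

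Whole reads were recovered from the RPM (100% of values whole within 0.0006 RPM). RPM were summed by mature miRNA name, and Tau tg was compared with WT by limma 3.58.1 with a trend on log2(RPM + 1), over 689 miRNAs or 36070 sequences averaging 1 RPM or more, with Benjamini-Hochberg adjustment. The pseudocount understates changes of low miRNAs. Alternatives were a replicate block, each mouse left out in turn, other pseudocounts, filters and scalings, and count tests of the recovered reads (DESeq2 1.42.0, edgeR 4.0.16). Reads were aligned without gaps to RefSeq hairpins (up to 8 bases from the annotated start). Shares of reads carry Wilson 95% intervals, and 3 reads were taken as the level that a count of 0 allows, which cover counting error only, since PCR copies were not told apart.

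Named were the 7 miRNAs, for each its leading read, the next with the same start and the leading read with another start (at least 1 RPM), reads with an adjusted p under 0.05, the opposite arms, the nearest profile, and list members that led a list or had an unadjusted p under 0.05. Reads at an unadjusted p under 0.05, innate response miRNAs without overlap, shares of tails and the reads of 1 library were described after their values were seen. The miRNAs and the lists were chosen with earlier results of these data known. The labels and methods list 3 mice per group, fewer than a figure legend states.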

Additional observations from a re-analysis of the deposited data

How the results depend on the processing

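No miRNA of the 7 passed an adjusted p of 0.05 under any alternative, the smallest being 0.786 for mmu-miR-142a-3p without WT 1, and mmu-miR-150-5p, mmu-miR-142a-3p, mmu-miR-146a-5p and mmu-miR-155-5p kept their sign under each that was run. For mmu-miR-150-5p the log2 fold change lay between 0.014 (median-of-ratios) and 0.092 (quantile) under the other scalings and the count tests, and between 0.060 and 0.31 when a mouse was left out. The log2 fold change of mmu-miR-146b-5p was -0.084 with median-of-ratios scaling, -0.0033 with quantile normalization, -0.029 with scaling to miRNA reads, -0.0090 with edgeR and -0.067 with DESeq2, and -0.091 to 0.22 when a mouse was left out. That of mmu-miR-223-3p was -0.081 with quantile normalization and -0.25 to 0.63 when a mouse was left out, and that of mmu-miR-142a-5p was -0.34 to 0.015. Signs of single reads turned as well: the leading mmu-miR-150-5p read was 0.036 with edgeR (-0.19 to 0.12 when a mouse was left out), the mmu-miR-146a-5p read with an added U was 0.17 with quantile normalization (-0.49 to 0.27), and the leading mmu-miR-142a-5p read was -0.013 with median-of-ratios scaling, -0.013 with edgeR and -0.18 with DESeq2 (-0.37 to 0.56). Leaving out a mouse gave -1.04 to 0.12 for the second mmu-miR-142a-3p read, -0.057 to 0.53 for the second mmu-miR-142a-5p read and -1.53 to 0.11 for its read with the earlier start. The mmu-miR-150-5p read starting 1 base late had an unadjusted p of 0.0964 by edgeR, 0.176 by DESeq2, and, with a mouse left out, 0.153 (WT 1), 0.161 (Tau tg 1) and 0.259 (Tau tg 2), as well as 0.0912 without the limma trend, 0.12 with the filter of 10 RPM, 0.0513 with quantile normalization and 0.0547 with a pseudocount of 5 RPM, in the fits over all sequences, where it did not pass after adjustment either.

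Of all miRNAs, 25 had an unadjusted p under 0.05 and 18 to 50 when a mouse was left out, with 50 without WT 1. At an adjusted p under 0.05, DESeq2 gave 5 where limma gave 0, and 0 to 1 passed when a mouse was left out, the 1 without Tau tg 1. The cause was not tested. mmu-miR-155-5p fell under the filter of 10 RPM and has no value there. The labels do not say whether the replicate numbers pair the mice. Deviations of WT and Tau tg mice with the same number correlated at -0.002, -0.069 and 0.041, and those of other pairs at -0.1271 to 0.1055. With 3 mice in a group, such correlations cannot decide whether mice were paired. With the replicate block, adjusted p-values were between 0.879 and 0.966 for the 7 miRNAs, and 22 of all miRNAs had an unadjusted p under 0.05. The log2 ratio of the summed level of the 7 was 0.11, and it was -0.049 with median-of-ratios scaling and 0.0027 with scaling to miRNA reads. Levels of a few RPM, as those of mmu-miR-155-5p, rest on few reads.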
